A study of Sus scrofa with 4 samples.

Results

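Genes that carry bacterial signals to the transcription factor NF-kB were read in the ileum, the last segment of the small intestine, of suckling piglets aged 16 days. The 10 pig genes were *MYD88*, *IRAK4*, *TRAF6*, *CD14*, *LY96*, *NOD1*, *NOD2*, *NFKB1*, *RELA* and *NFKBIA*. They were chosen by name, with earlier results of these data known. Every probe that the array design ties to a RefSeq transcript of these genes was taken. That gave 17 of 43603 probes for 10 of 2389 named genes. *MYD88*, *IRAK4*, *TRAF6*, *NFKB1* and *NOD1* had 1 probe each, *CD14*, *NOD2*, *RELA* and *NFKBIA* had 2 each, and *LY96* had 4. Each of these probes was spotted once on an array.

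The low-gain group had 2 arrays, called a and b, each from ileum RNA of a pool of 2 piglets with low weight gain, and the high-gain group had 2 arrays, a and b, each from a pool of 3 piglets with high weight gain. The piglets of both groups were sucklings from Yorkshire × Landrace sows mated to Duroc boars, and the labels name no treatment. The design text of the series speaks of birth weight where the sample labels speak of weight gain, and the labels were followed. It is not stated whether a and b within a group were separate pools or 1 pool measured again. The p-values set the group difference against the spread between arrays of a group, pooled in part over all tested probes. That spread may be technical only.

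Bacterial products are sensed at the cell surface and in endosomes by Toll-like receptors, and in the cytoplasm by NOD proteins. For endotoxin, CD14 passes the lipid to a receptor made of TLR4 and LY96 (also called MD-2), which recruits the adaptor MYD88, the kinase IRAK4 and the ubiquitin ligase TRAF6. NOD1 and NOD2 bind fragments of bacterial peptidoglycan and signal through the kinase RIPK2. Both routes end at a kinase complex that marks the inhibitor encoded by *NFKBIA* for destruction, which frees NF-kB dimers such as that of RELA with the product of *NFKB1*. *NFKBIA* is itself an NF-kB target gene, so its transcript is widely read as a sign of NF-kB activity. In the gut the pathway is known for the responses of epithelium and phagocytes to the bacteria of the lumen.

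Values below are log2 of the scanner's processed signal minus the 75th percentile of the same array, so that 0 is that percentile and 1 unit is a factor of 2. Differences are low gain minus high gain, with the standard error (SE) of a limma fit over 33265 tested probes. A probe was tested if the scanner called it well above background on both arrays of at least 1 group. That held for 16 of the 17 member probes, each of them well above background on all 4 arrays and none saturated, and the probe of *NOD1* was left out. All 4 arrays lay on 1 slide scanned on 1 day, with between 32835 and 33972 of 43803 non-control spots well above background. The scanner's median coefficient of variation among repeat spots was 9.04% on low-gain array a and 5.72% to 6.12% on the other 3 arrays. The ileal marker *FABP6*, a bile acid binding protein of enterocytes, stood at 8.65 and 8.72 in low gain, against 8.55 and 8.76 in high gain. It differed least of 6 tested enterocyte genes, so it does not show that the groups were matched for enterocytes. Of the 6, 5 were higher and 1 lower in low gain, with differences from -0.24 to 0.68 and 0 past the test. With 2 arrays a group, precision is limited by that number.

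Most member probes gave less signal in low-gain ileum, but none passed the test. Of 16 tested probes, 0 had a limma adjusted p under 0.05, where 0.24% of all tested probes did and 0.144% did so with a lower signal in low gain. The largest member difference was 1.11 in size, and the smallest difference called anywhere on the array was 1.49. The mean was lower in low gain at 15 of 16 member probes, against 47.3% of all tested probes, and the median difference was -0.31 against 0.02.

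Both low-gain arrays lay below both high-gain arrays at 13 of 16 member probes, against 26.9% of all tested probes. They lay above both at 1 member probe, that of *TRAF6*, against 27.6% of all. Before adjustment, 7 member probes were under 0.05 with a lower signal in low gain (8.57% of all probes) and 1 with a higher signal (9.82% of all). The 16 probes read 9 genes on the same 4 arrays and are not independent of each other, so these shares are descriptions. An adjusted p that misses the threshold does not show that the groups were alike. The largest differences belonged to *CD14*, *MYD88* and *RELA*, and the smallest to *IRAK4* and *NOD2*.

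**Figure D1:**
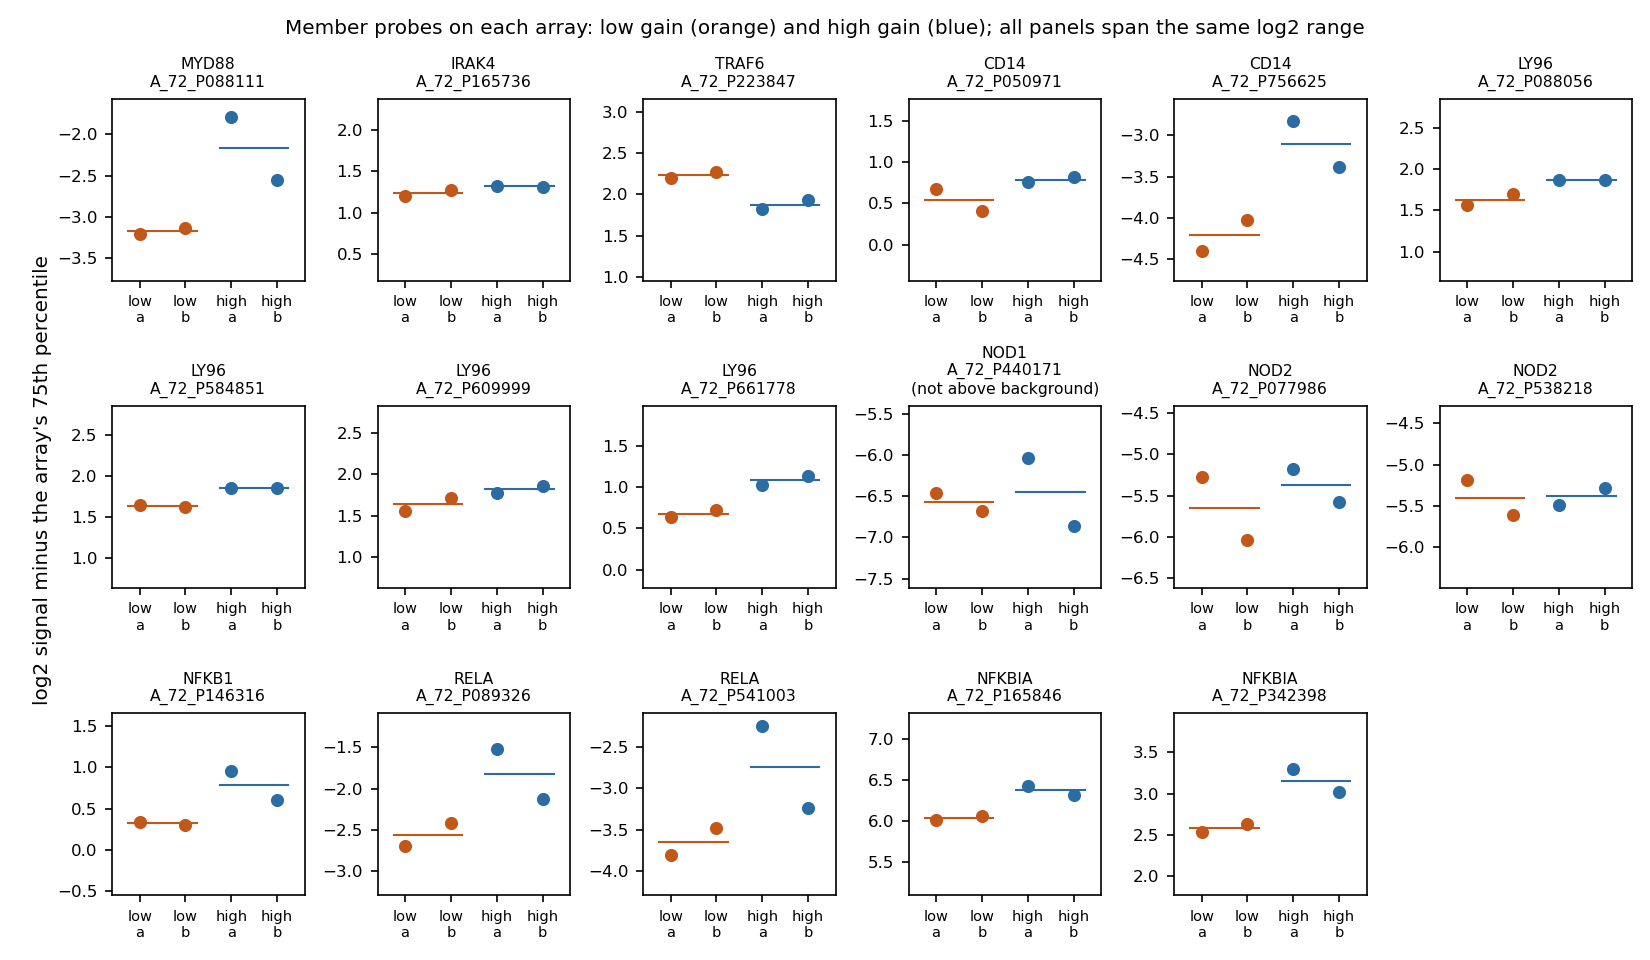
Normalised log2 signal of the 17 member probes (vertical axis, log2 signal minus the array's 75th percentile) on the 2 low-gain arrays (orange) and the 2 high-gain arrays (blue), with a line at each group mean. At 13 tested probes both low-gain points lie below both high-gain points, *TRAF6* shows the opposite order, and the 2 probes of *NOD2* overlap between groups.

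Among the adaptor and its partners, *MYD88* was lower, *TRAF6* higher and *IRAK4* nearly level in low gain, none of them past the test. *MYD88*, the adaptor shared by most Toll-like receptors and the interleukin-1 receptor, read -3.21 and -3.13 in low gain, against -1.79 and -2.55 in high gain. The groups did not overlap, and the high-gain arrays stood 0.76 apart where the low-gain arrays stood 0.08 apart. The mean signal was 2.00-fold lower in low gain, a log2 difference with an SE of 0.29 and a 95% interval from -1.80 to -0.20 (2 against 2 arrays, adjusted p = 0.221 in limma). The log2 difference was -0.62 without high-gain array a and -1.38 without high-gain array b. Normexp, another background correction, adds an offset of 50 intensity units, which by itself shrinks log2 differences at weak signals. The signals of this probe were 44.3 to 139.8. As planned, normexp gave -0.43 ± 1.11, and -0.54 with bright local backgrounds replaced, a setting chosen after the data were seen.

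*TRAF6*, the ubiquitin ligase below IRAK4, read 2.20 and 2.27 in low gain, against 1.82 and 1.93 in high gain. It was the only member whose low-gain arrays both lay above the high-gain arrays, by 0.36 ± 0.11 (adjusted p = 0.223, 1.29-fold). Its 95% interval ran from 0.07 to 0.66, and its difference stayed between 0.31 and 0.50 in the 15 alternative analyses. *IRAK4*, the kinase that binds MYD88 directly, read 1.20 and 1.27 in low gain, against 1.32 and 1.32 in high gain. The groups were separate by only 0.05, and the difference of -0.08 ± 0.10 (adjusted p = 0.675) had an interval from -0.36 to 0.19 and was -0.05 without low-gain array a.

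The endotoxin receptor genes *CD14* and *LY96* were lower in low gain at all 6 of their probes, without passing. *CD14*, a surface protein of monocytes and macrophages that binds endotoxin, was read by a bright and a dim probe that gave differences of unequal size. Its probe A_72_P756625 read -4.40 and -4.02 in low gain, against -2.83 and -3.38 in high gain. The gap between groups was 0.64, more than the 0.38 and 0.55 between the arrays within low and high gain. The difference was -1.11 ± 0.25 (adjusted p = 0.194), a 2.16-fold lower signal, the lowest adjusted p among member probes.

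The other *CD14* probe, A_72_P050971, read 0.68 and 0.41 in low gain, against 0.76 and 0.82 in high gain. Here the groups were separate by only 0.08, and the difference was -0.25 ± 0.14 (adjusted p = 0.405). It was -0.38 without low-gain array a and -0.11 without low-gain array b. Both probes are tied to the same transcript, and the stretch of it that each reads is not given in the files. Normexp gave -0.30 ± 1.23 for A_72_P756625 and -0.18 ± 0.86 for A_72_P050971, with SEs too large to fix either size. With bright backgrounds replaced it gave -0.39 ± 0.13 and -0.23 ± 0.12. Its offset of 50 by itself draws the probes together, since A_72_P756625 has signals of 19.4 to 67.9. The size of the *CD14* difference therefore depends on the probe and on the background correction with its offset. At A_72_P050971 it also depends on which low-gain array is used.

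*LY96*, which encodes the endotoxin-binding partner of TLR4, was read by 4 probes that were all lower in low gain. Its brightest probe, A_72_P088056, read 1.56 and 1.70 in low gain, against 1.87 and 1.87 in high gain, a difference of -0.24 ± 0.11 (adjusted p = 0.328). Probe A_72_P661778 read 0.64 and 0.73 in low gain, against 1.03 and 1.13 in high gain, a difference of -0.40 ± 0.11 (adjusted p = 0.211). Probe A_72_P584851 gave -0.21 and probe A_72_P609999 gave -0.18, which was -0.10 without low-gain array a. At each of the 4 probes both low-gain arrays were below both high-gain arrays, and the 95% interval of A_72_P661778 alone left out 0, at -0.70 to -0.10.

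Markers of the cells that carry CD14 were mixed in direction. In a piece of tissue, fewer cells of a type and less RNA per cell cannot be told apart. Of 6 tested macrophage and monocyte genes, 2 were higher and 4 lower in low gain, and 1, the lysozyme gene *LYZ* (-1.52), fell past the test. The mean of the 6 was 0.73 and 0.87 on the low-gain arrays, against 1.36 and 1.27 on the high-gain arrays. That gap came from *LYZ* and the sialoadhesin gene *SIGLEC1* (-1.57, not past the test, and well above background on 1 of the low-gain arrays). These were the 2 most lowered of the 6 and were left out after their values were seen, so a smaller gap was built in. Without them the mean of the other 4 was 2.12 and 2.09 on the low-gain arrays, against 2.11 and 2.11 on the high-gain arrays. In that mean *CD163* and *CCR2* offset each other. The scavenger receptor gene *CD163* differed by -0.41, with its 3 other probes at -0.54 to -0.39. The complement gene *C1QA* differed by 0.11, *AIF1* by -0.07 and the chemokine receptor gene *CCR2* by 0.33, while *FCGR1A* was not tested for low signal. Of 5 neutrophil genes, the calgranulin genes *S100A8* (1.06), *S100A9* (0.55) and *S100A12* (0.53) were higher and *NCF1* (-1.11) and *PMAP-23* (-2.71) lower, none past the test. *PMAP-23*, at -6.12 and -5.52 in low gain, was well above background on only 1 of the low-gain arrays, so the size of its difference is uncertain. The part of these cells in the differences of *CD14* and *LY96* was not tested.

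Mean levels of other marker lists stood apart on the arrays as well, although few of their genes passed the test. These were 1 of 4 goblet cell genes, *CLCA1* (1.73), 1 of 7 T and NK cell genes, *GZMK* (1.67), and 0 in the other lists. Both calls were kept with quantile normalisation and median centring. They were lost with normexp, with no filter on dim probes and with signal required on all 4 arrays. Means over 6 enterocyte genes were 6.55 and 6.58 in low gain, against 6.20 and 6.31 in high gain. Those over 5 smooth muscle genes were 5.21 and 5.17 in low gain, against 4.84 and 4.83 in high gain. Those over 4 goblet cell genes were 3.38 and 3.36 in low gain, against 2.28 and 2.34 in high gain. Those over 7 T and NK cell genes were -0.43 and -0.47 in low gain, against -1.11 and -1.12 in high gain. B cell genes (3) and fat cell genes (6) had lower means on both low-gain arrays. The part of these cells in the member differences was not tested.

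The cytoplasmic sensors gave little signal. The probe of *NOD1* was not well above background on any array, with processed signals of 4.65 and 4.53 in low gain and of 7.36 and 4.05 in high gain, so no fold is given. *NOD2* was well above background on all arrays but dim, and the scanner put the error of its single spots at 13.8% to 20.9% of the signal, against 10.2% to 12.4% for the dim *CD14* probe A_72_P756625. Probe A_72_P077986 read -5.28 and -6.04 in low gain, against -5.18 and -5.58 in high gain. Probe A_72_P538218 read -5.19 and -5.61 in low gain, against -5.48 and -5.29 in high gain. The groups overlapped at both probes, with differences of -0.28 ± 0.32 (adjusted p = 0.659) and -0.01 ± 0.19 (adjusted p = 0.976). The intervals, -1.16 to 0.61 and -0.54 to 0.51, leave room for a change of either sign.

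The subunit and inhibitor genes of NF-kB were lower in low gain at all 5 probes, with no call. *RELA*, the subunit that carries the main activation domain, read -2.69 and -2.42 in low gain, against -1.52 and -2.13 in high gain, at probe A_72_P089326. Its probe A_72_P541003 read -3.81 and -3.48 in low gain, against -2.25 and -3.23 in high gain. As with *MYD88*, high-gain array a was well above the other 3 arrays at both probes. The differences were -0.73 ± 0.25 (adjusted p = 0.262) and -0.91 ± 0.38 (adjusted p = 0.313), and they were -0.43 and -0.41 without that array and -1.04 and -1.40 without high-gain array b. The second was smaller than the 0.99 between the high-gain arrays. With normexp, whose offset shrinks differences at signals this weak, the probes gave -0.30 ± 1.04 and -0.34 ± 1.17. With bright backgrounds replaced as well, they gave -0.38 ± 0.15 and -0.38 ± 0.17.

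*NFKB1*, which encodes the precursor of the partner subunit of RELA, read 0.34 and 0.31 in low gain, against 0.96 and 0.60 in high gain. The groups did not overlap, and again high-gain array a was the highest. The difference was -0.46 ± 0.16 (adjusted p = 0.262, 1.37-fold lower), and -0.28 without high-gain array a.

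*NFKBIA*, the inhibitor gene and NF-kB target, was lower in low gain at both of its bright probes. Probe A_72_P342398 read 2.54 and 2.64 in low gain, against 3.29 and 3.02 in high gain. Probe A_72_P165846 read 6.01 and 6.06 in low gain, against 6.43 and 6.32 in high gain. The difference was 2.05 times the larger gap between arrays of a group at the first and 2.86 times at the second. The differences were -0.57 ± 0.14 (adjusted p = 0.200, 1.48-fold lower) and -0.34 ± 0.11 (adjusted p = 0.240, 1.26-fold lower). The first was the only member probe that passed in any alternative, with an adjusted p of 0.0444 when limma's prior variance followed the intensity, a fit in which 1250 of 33265 probes passed. Without high-gain array a the differences were -0.43 and -0.28. They were -0.48 ± 1.12 and -0.34 ± 1.19 with normexp. With normexp and bright backgrounds replaced, they were -0.56 ± 0.13 and -0.37 ± 0.12.

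**Figure D2:**
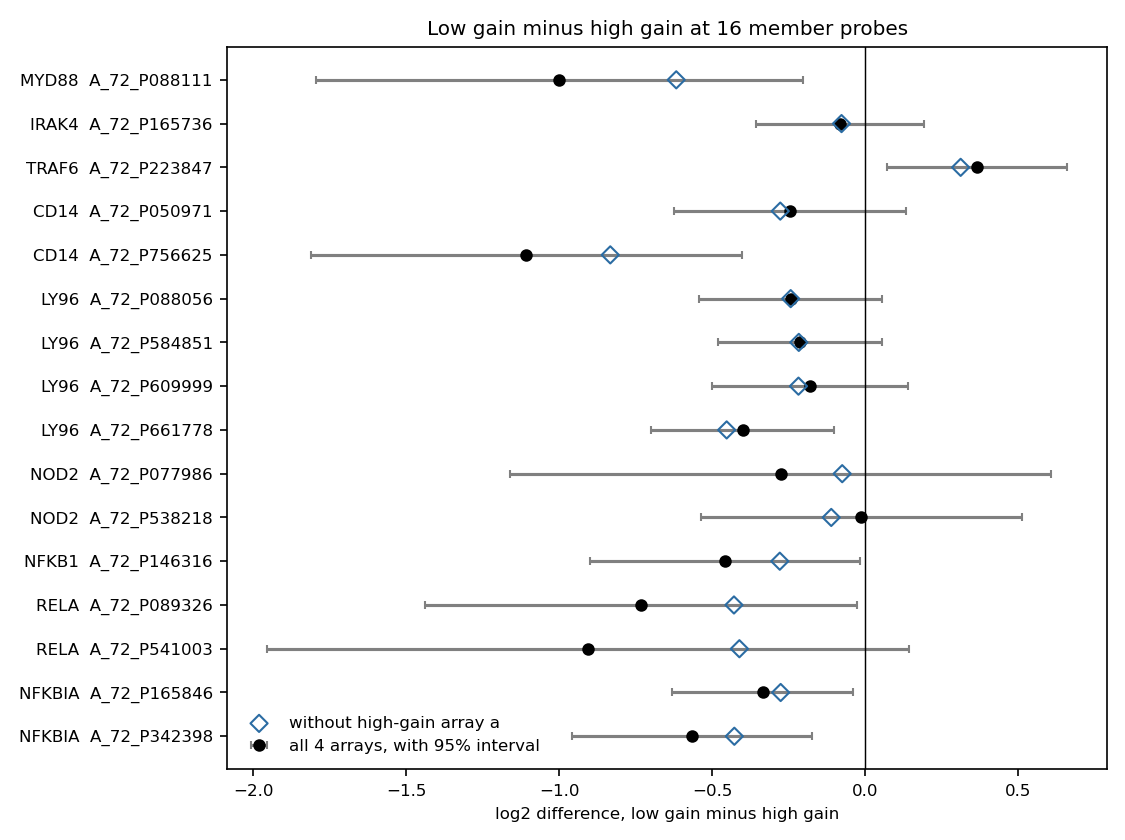
Difference between low and high gain (horizontal axis, log2, low gain minus high gain) at the 16 tested member probes, as black points with the 95% interval of the limma fit; open blue diamonds give the value without high-gain array a. The intervals, not adjusted for the number of probes, leave out 0 at 8 probes, and the diamonds lie at -0.62 for *MYD88*, -0.43 and -0.41 for *RELA* and -0.28 for *NFKB1*, each nearer to 0 than its point.

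High-gain array a had the highest of the 4 values at 9 of 16 member probes, against 26.3% of all tested probes. These were the probes of *MYD88*, *IRAK4* and *NFKB1*, both of *RELA* and *NFKBIA*, and 1 each of *CD14* and *NOD2*. Low-gain array a, the array with the highest repeat-spot variation, had the lowest value at 10 of 16, against 29.0% of all. Without low-gain array a, the differences of *MYD88* (-0.96), *NFKB1* (-0.48) and the 2 *NFKBIA* probes (-0.52 and -0.31) were close to those from all arrays. Among other probes they shrank at *RELA* (-0.60 and -0.75), *CD14* A_72_P756625 (-0.92) and *LY96* A_72_P609999 (-0.10). They grew at *CD14* A_72_P050971 (-0.38) and at both *NOD2* probes (-0.66 and -0.22). The local background beside the member spots lay between 15 and 22 intensity units on all arrays, so that none sat near a bright background.

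Over the 4 arrays, the gene whose centred values lay nearest to those of *MYD88* was *SLC35A4*, at a Euclidean distance of 0.15 (log2) among 2157 other named genes. It was followed by *CCND3*, the cyclin D3 gene, at 0.17 and by *PPP1R10*, a regulatory subunit of protein phosphatase 1, at 0.18. They differed by -0.86, -0.996 and -0.89 (log2) between low and high gain (adjusted p 0.200 to 0.235). Among the members, *RELA* ranked at 17 by this distance (0.32), *NFKB1* at 103 (0.62) and *TRAF6* at 1787. The likeness rests on 4 arrays and on the same high value of high-gain array a.

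**Figure D3:**
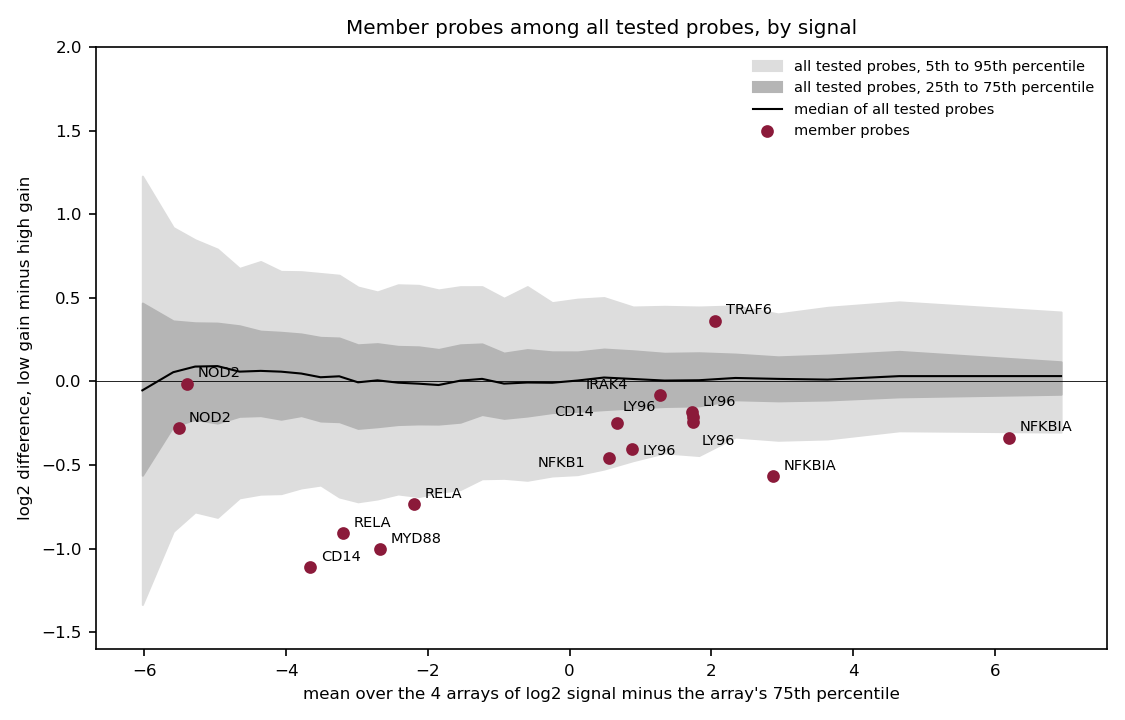
Difference between low and high gain (vertical axis, log2) against mean normalised log2 signal over the 4 arrays (horizontal axis) for the 16 tested member probes (red points), over bands of the 25th to 75th (dark) and 5th to 95th (light) percentiles of all tested probes in 30 bins of like signal. Of the 16, 6 lie below the 5th percentile of their bin (*MYD88*, both *RELA* probes, both *NFKBIA* probes and 1 *CD14* probe) and 10 lie within the band.

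The other genes of the pathway were mixed in direction. In each list the brightest tested probe stood for a gene, and adjusted p-values come from the same limma fit. Of 9 Toll-like receptor genes, 0 passed, 3 were higher and 6 lower, with a median difference of -0.06. *TLR9*, a receptor for unmethylated DNA that signals through MYD88, read -0.89 and -1.02 in low gain, against -0.40 and -0.53 in high gain (-0.49, adjusted p = 0.196). *TLR2*, which binds bacterial lipoproteins, differed by 0.31, *TLR4* by -0.19 with its 3 other probes at -0.85 to -0.18, and *TLR3*, which does not use MYD88, by 0.15.

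Of 8 genes for endotoxin binding and transfer, 4 were higher and 4 lower in low gain, with a median of 0.03. Past the test, 2 rose and 0 fell. Those that rose past the test were *BPI*, a bactericidal protein gene (2.45, adjusted p = 0.0383), and *SFTPD*, a collectin gene (1.87, adjusted p = 0.0323). Both calls, and those of *LYZ* and *SAA3*, were kept in 7 of 15 alternatives and lost in 8, among them the replicate block and leaving out any 1 array. *PGLYRP1*, which binds peptidoglycan, differed by 0.45 and *LY86*, the gene of a protein related to LY96, by -0.41. *LBP*, whose product hands endotoxin to CD14, read -0.14 and 0.05 in low gain, against 0.20 and -0.20 in high gain, and differed by -0.04.

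Between the receptors and NF-kB, few genes had a named probe. Of 4 tested adaptor, kinase and interferon regulatory factor genes, 0 passed and 2 were lower. The adaptor gene *TICAM2* differed by 0.41, the kinase gene *MAP3K7*, which acts below TRAF6, by -0.32, and *IRF7* and *IRF3* by -0.13 and 0.13. The other probe of *IRF3* gave -0.39, so that its direction depends on the probe. Of 4 further genes of the NF-kB module, 0 passed, 1 was higher and 3 lower, with a median of -0.39. *TNIP1*, which encodes an inhibitor of NF-kB signalling, read -1.46 and -1.19 in low gain, against -0.19 and -0.81 in high gain (-0.83, other probe -0.55). The kinase complex genes *IKBKG* and *CHUK* differed by -0.54 and -0.24. *IKBKB*, its catalytic partner, differed by 0.80 at one probe and by -0.63 at the other, so that its direction depends on the probe.

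Of 4 tested NOD and inflammasome genes, 0 passed, with a median of 0.29. *CASP1*, the protease that matures interleukin-1, read 3.21 and 3.12 in low gain, against 2.46 and 2.65 in high gain (0.61, adjusted p = 0.181). *IL1B* differed by 0.57, *IL18* by 0.01 and *XIAP*, a ubiquitin ligase of the NOD pathway, by -0.54. In the MAP kinase branch 0 of 3 passed, with *JUN* at 0.29, *MAP2K1* at 0.08 and *FOS* at 0.04, but the 4 other probes of *MAP2K1* ran from -0.74 to 0.52.

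The NF-kB target genes showed no common direction. Of 27 tested, 1 passed, 16 were higher and 11 lower in low gain, with a median of 0.06 against 0.02 over all 2158 named genes. The gene that passed was the serum amyloid gene *SAA3*, lower in low gain (-1.91, adjusted p = 0.0326). The next largest differences were those of the chemokine gene *CCL5* (0.88), the complement gene *CFB* (0.80) and the prostaglandin synthase gene *PTGS2* (0.72), none past the test. *ICAM1* (-0.23), *TNF* (0.19), *CXCL8* (0.25) and *CCL20* (0.05), common readouts of NF-kB activity, did not pass, and the other probe of *TNF* gave -0.63.

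**Figure D4:**
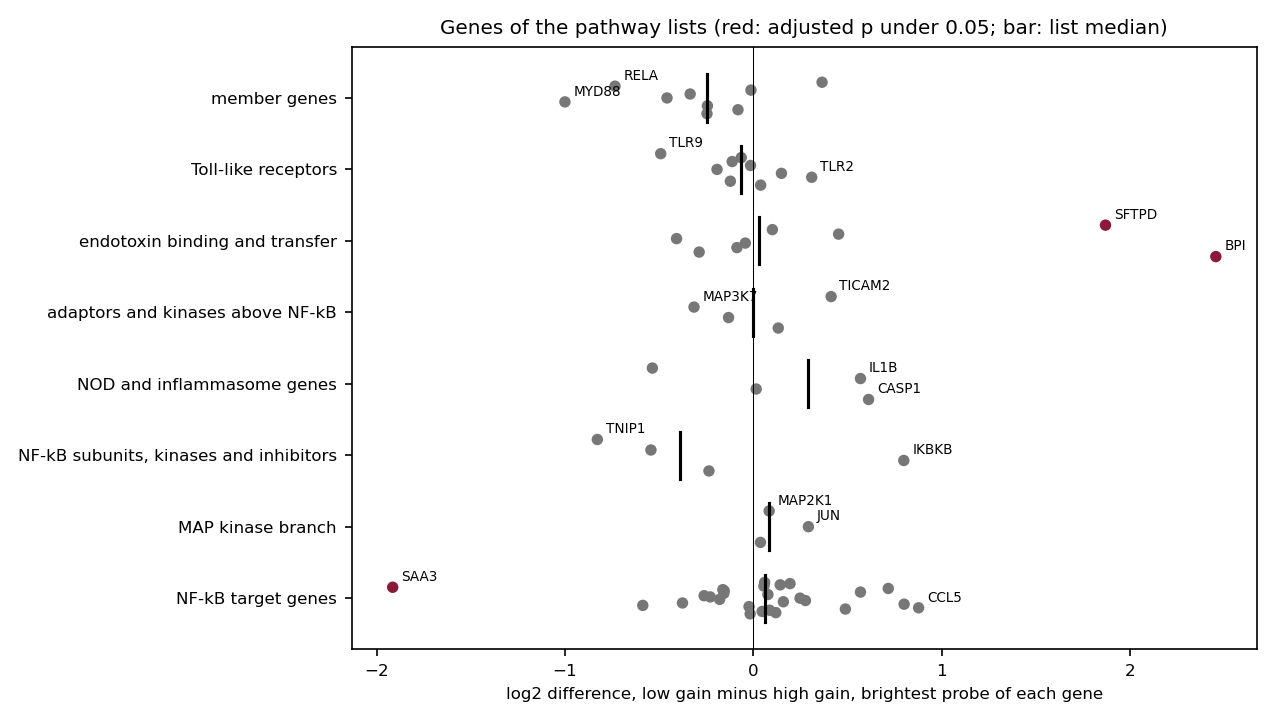
Difference between low and high gain (horizontal axis, log2, low gain minus high gain) for each tested gene of the pathway lists by its brightest probe, with the list median as a bar and genes past the test in red. The median of the 9 member genes is -0.25, that of the NF-kB target genes 0.06, and 3 genes, *BPI*, *SFTPD* and *SAA3*, pass.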

How the data were processed

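The authors deposited 4 scanner files of 1-colour (Cy3) Agilent pig arrays whose spot intensity values, on a linear scale, came from Agilent Feature Extraction, version 10.7.3.1, per the file headers. They also deposited a table of log2 values, whose steps between arrays are not given in the sources used here. The rank correlation of this table with log2 processed signal of the same array was 0.996 to 0.998 and its slope 1.00 to 1.01. The medians of its columns were 5.62 and 5.59 in low gain, and 5.67 and 5.60 in high gain. It was not centred per gene, and it served only as an alternative.

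From the scanner files, the level of a spot was taken as log2 processed signal minus the 75th percentile of its array's non-control spots. Outlier-flagged spots were removed before averaging per probe, and 48 probes without a value on every array were not used. The test was that of limma 3.58.1 (lmFit, eBayes; R 4.3.3) with Benjamini-Hochberg adjustment over 33265 probes, a step tested on simulated data. Genes were named by RefSeq transcript, without version, through an NCBI gene table of Sscrofa11.1, which named 5461 of 5779 probes with such an identifier. No build is named in the files and coordinates are left out; probe sequences were not used here. The members and gene lists (7 pathway lists and 8 marker lists) were chosen with earlier results of these data known. The text names every member probe, up to 4 genes with the largest difference in each pathway list, the 3 genes nearest to *MYD88*, and some further list genes chosen after their values were seen. Alternatives were other scalings, background corrections, filters and variance models, the deposited table, a replicate block and leaving out each array.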

Additional observations from a re-analysis of the deposited data

How the results depend on the processing

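With 4 arrays, limits are set by the spread between 2 arrays of a group and, for *NOD1* and *NOD2*, by signal near background. No member passed and the smallest called change was 1.49 in size, so a threshold that was not crossed says little about the members. Their sizes moved with the setting in 15 alternatives. The ranges were -1.38 to -0.43 for *MYD88*, -1.38 to -0.30 for *CD14* A_72_P756625 and -1.40 to -0.34 for *RELA* A_72_P541003. The smallest of these sizes came from normexp, whose offset of 50 by itself shrinks differences at weak signals. The number of member probes past the test was 0 in each alternative except the intensity trend, where it was 1 (*NFKBIA*). Only *NOD2* changed sign. Its probe A_72_P538218 gave 0.014 with normexp on the median signal, 0.13 with normexp and bright backgrounds replaced, and -0.22 to 0.19 when 1 array was left out. Its probe A_72_P077986 gave 0.071 with bright backgrounds replaced and -0.66 to 0.10 when 1 array was left out. Averaged over the probes of a gene, *CD14* was at -0.68, *RELA* at -0.82 and *NFKBIA* at -0.45.

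Over all probes, 80 passed. The count was 69 with quantile normalisation, 163 with median centring, 99 with the deposited log2 values, 12 with no filter on dim probes, 0 with signal required on all 4 arrays (6071 under an unadjusted 0.05), 1250 with the intensity trend, 0 with normexp (also 0 unadjusted), 80 with outlier spots kept, and 0 to 37 when 1 array was left out (0 without either high-gain array). It was 850 with normexp and bright backgrounds replaced, where local backgrounds above 100 intensity units (22 spots on low-gain array a, 25 on high-gain array b) took the array's median, and 197 with the intensity trend without low-gain array a. These last 2 settings were chosen after seeing the data. The calls of *BPI*, *SFTPD*, *SAA3* and *LYZ* were lost with normexp, with no filter, with signal required on all arrays, with the replicate block and without any 1 array, with differences over all alternatives of 1.07 to 2.60, 0.89 to 1.89, -1.95 to -1.65 and -1.56 to -1.41. The cause of the changes was not tested. With the letter as a replicate block 0 probes passed (4703 unadjusted), 0 of them members, whose lowest adjusted p was 0.348. The a minus b differences of the groups correlated at -0.04 over probes, which cannot settle whether the letters pair the arrays. Since each group has an a and a b, the block leaves the differences unchanged and alters only their error.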
